A study of Homo sapiens with 21 samples.

Results

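The FOXD family was followed through chromatin accessibility data from neuroblastoma cells in which ARID1A, ARID1B or both had been silenced. An accessible site was taken as a family member when the deposited annotation named FOXD1, FOXD2, FOXD3 or FOXD4 as its nearest gene. This gave 36 of 367900 sites, with 10 for FOXD1, 20 for FOXD2, 1 for FOXD3 and 5 for FOXD4. A site carries the name of the gene with the nearest transcription start site (TSS), which need not be a gene it acts on. The family was chosen by the log2 change of combined silencing against Control, in which a FOXD2 site had the largest fall among sites with a mean of at least 1 CPM, so values of that comparison are given as a description without a test.

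FOXD proteins are forkhead transcription factors, which bind DNA through a winged-helix domain. FOXD3 is known as a regulator of the neural crest, the embryonic tissue from which neuroblastoma arises, and FOXD1 for its role in the developing kidney stroma and retina. FOXD2 lies in a gene-poor stretch beside FOXE3, another forkhead gene, and FOXD4 belongs to a set of recently duplicated human genes. ARID1A and ARID1B are alternative structural subunits of BAF, a chromatin remodelling complex that keeps many regulatory sites open.

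The cells were SK-N-BE(2), an established human neuroblastoma line grown in culture. They received lentiviral short hairpin RNAs (shRNAs), and ATAC-seq, in which the Tn5 transposase cuts open DNA and tags it for sequencing, was run 72 h later. Each of 7 groups had 3 libraries. They were Control, the single shRNAs shARID1A.2 and shARID1A.4 against ARID1A, the single shRNAs shARID1B.2 and shARID1B.3 against ARID1B, and the combinations shARID1A/B.2.3 and shARID1A/B.4.2 against both genes. All groups share the cell line and the transduction, so the results describe 1 line. An shRNA acts on the transcript, so accessibility does not measure how strongly each shRNA silenced its target.

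Libraries held between 16140029 and 44472230 reads in sites, and all 36 member sites passed the filter on low counts together with 357029 sites in all. Levels are given in CPM, the reads of a site relative to the reads of its library after TMM scaling, and they are per site and not per length. Promoter sites took 20.0% to 20.6% of the reads in Control and 20.9% to 25.1% in silenced libraries. Of 8 adrenergic neuroblastoma markers, 5 had a promoter site, at 2.43 to 43.9 CPM in Control, and of 6 mesenchymal markers 2 had one, FOSL2 and TWIST1, at 72.1 and 41.2 CPM. None of 4 markers of other cell types (PTPRC, EPCAM, ALB and PECAM1) had a promoter site. In such bulk libraries, fewer cells with an open site and less opening in each cell cannot be told apart.

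The sequences of 6 site centres are shown because the results turn on these sites. FOXD2 +182.6 kb had the largest fall of the family, FOXD2 +269.9 kb and +249.5 kb followed it within the family, and FOXD2 +152.2 kb differed most between ARID1A and ARID1B silencing. FOXD2 +72.6 kb holds a forkhead motif, and FOXD1 +74.0 kb was the FOXD1 site with the largest fall. Each window has 300 bases of the GRCh38 reference, and capitals mark motif matches on either strand.
FOXD2 +182.6 kb, chr1:47618491-47618790, plus strand: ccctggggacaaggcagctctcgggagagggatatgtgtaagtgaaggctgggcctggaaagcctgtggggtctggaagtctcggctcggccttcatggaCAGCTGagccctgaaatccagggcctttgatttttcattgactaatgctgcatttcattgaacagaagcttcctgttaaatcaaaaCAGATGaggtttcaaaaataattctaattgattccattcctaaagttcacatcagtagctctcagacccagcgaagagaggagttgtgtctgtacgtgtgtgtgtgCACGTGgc
FOXD2 +269.9 kb, chr1:47705721-47706020, plus strand: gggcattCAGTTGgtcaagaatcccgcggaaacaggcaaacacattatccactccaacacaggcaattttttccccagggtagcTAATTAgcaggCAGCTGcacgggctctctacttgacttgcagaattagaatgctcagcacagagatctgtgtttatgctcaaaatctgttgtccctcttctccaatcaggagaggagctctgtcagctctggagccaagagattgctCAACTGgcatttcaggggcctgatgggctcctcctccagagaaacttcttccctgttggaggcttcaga
FOXD2 +249.5 kb, chr1:47685391-47685690, plus strand: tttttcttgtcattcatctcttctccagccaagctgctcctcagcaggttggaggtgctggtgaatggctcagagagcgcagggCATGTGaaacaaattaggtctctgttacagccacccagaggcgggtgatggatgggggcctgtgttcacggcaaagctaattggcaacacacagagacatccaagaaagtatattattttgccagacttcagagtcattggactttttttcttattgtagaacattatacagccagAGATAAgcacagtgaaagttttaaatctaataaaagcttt
FOXD2 +152.2 kb, chr1:47588087-47588386, plus strand: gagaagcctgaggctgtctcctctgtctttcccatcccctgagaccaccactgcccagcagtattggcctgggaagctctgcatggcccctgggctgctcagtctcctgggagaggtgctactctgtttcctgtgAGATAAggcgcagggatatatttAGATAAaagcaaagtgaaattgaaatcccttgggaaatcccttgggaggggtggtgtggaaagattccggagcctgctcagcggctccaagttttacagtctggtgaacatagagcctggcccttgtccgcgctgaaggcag
FOXD2 +72.6 kb, chr1:47508434-47508733, plus strand: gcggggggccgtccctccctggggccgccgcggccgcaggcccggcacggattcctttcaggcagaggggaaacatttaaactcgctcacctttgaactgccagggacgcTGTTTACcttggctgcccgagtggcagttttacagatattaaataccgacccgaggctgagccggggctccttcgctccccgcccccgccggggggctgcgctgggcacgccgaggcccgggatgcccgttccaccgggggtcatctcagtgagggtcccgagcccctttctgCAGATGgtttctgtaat
FOXD1 +74.0 kb, chr5:73374382-73374681, plus strand: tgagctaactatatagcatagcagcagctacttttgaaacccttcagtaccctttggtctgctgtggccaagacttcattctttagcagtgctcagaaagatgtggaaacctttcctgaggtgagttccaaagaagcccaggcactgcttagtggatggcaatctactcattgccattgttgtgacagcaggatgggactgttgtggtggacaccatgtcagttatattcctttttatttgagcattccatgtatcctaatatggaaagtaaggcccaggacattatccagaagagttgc
The motifs searched were forkhead GTAAACA, homeodomain TAATTA, the GATA-factor motif AGATAA, AP-1 TGANTCA, E-box CANNTG and the PHOX-type homeodomain pair, and a PHOX-type match can overlap a homeodomain match. A forkhead match stood in 2 of the 36 member windows and in 5.0% of the 357024 windows of tested sites. GATA matches stood in 4 member windows (17.0% of all windows), homeodomain matches in 2 (7.9%) and E-box matches in 29 (81.9%). No member window held an AP-1 or PHOX-type match, against 10.9% and 0.6% of all windows. The window of FOXD2 +182.6 kb held 3 E-box matches and none of the other motifs, and that of FOXD1 +74.0 kb held no match.

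The 20 FOXD2 sites spread from the gene to 273.7 kb downstream of it. The site at 2.0 kb (chr1:47436483-47439483) lies in the single FOXD2 exon and covers the start of the gene in GENCODE, so the deposited distances count from a start a little upstream. The other 19 sites were annotated as intergenic, and in GENCODE 1 of them, at 252.8 kb, overlapped the start of the long non-coding RNA LINC01738. The next protein-coding gene, TRABD2B, occupies chr1:47760528-47997385 on the minus strand, beyond the last FOXD2 site.

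After combined silencing, 18 of the 36 member sites met the rule for a call on the lower side and 1 on the higher side, where 10.3% of all tested sites were called lower and 3.43% higher. The rule was a false discovery rate (FDR) under 0.01 in edgeR's quasi-likelihood test across all sites. In either direction, 13.7% of tested sites were called. All 6 combination libraries lay below all 3 Control libraries at 16 members and above them at 1, where 10.8% and 4.85% of tested sites showed this. This contrast led to the choice of the family, so its counts are a description, those of each combination included, and nothing is read from them. Of the 18, 16 were FOXD2 sites, and they were all 16 sites of the stretch from 72.6 to 269.9 kb, with log2 changes of -3.48 to -0.52. The remaining 4 FOXD2 sites, at 2.0, 8.6, 14.2 and 273.7 kb, had log2 changes of -0.09, -0.10, 0.19 and 0.01. Described by combination, shARID1A/B.2.3 had 17 members lower and 1 higher against Control (10.4% and 2.85% of tested sites, 13.2% in either direction), and shARID1A/B.4.2 had 13 and 1 (7.37% and 3.97%, 11.3% in either direction). The plot of log2 change by distance shows this stretch, with values near 0 at 2.0, 8.6 and 14.2 kb before it and at 273.7 kb beyond it. The limits of the stretch are those of the called sites themselves. On the far side only 1 FOXD2 site lies beyond it, and sites farther on carry other names and are not counted.

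**Figure D1:**
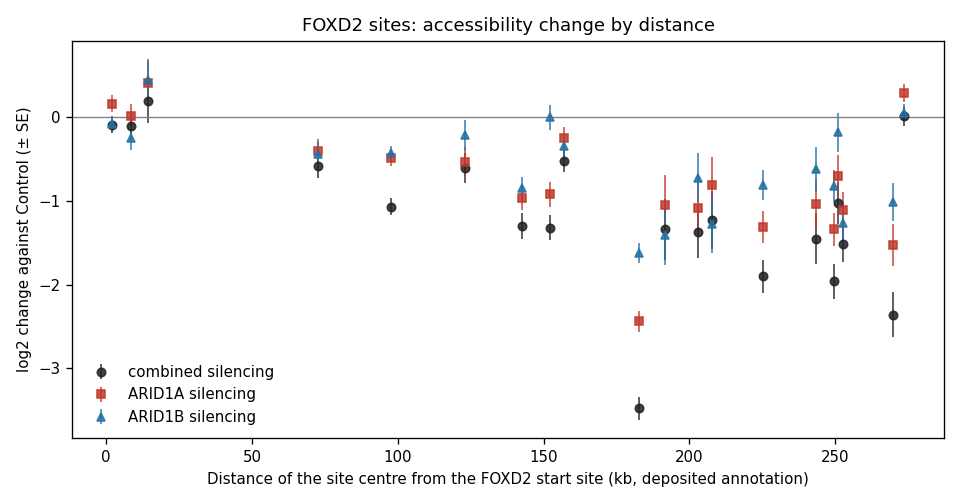
log2 change against Control (y axis, with standard errors) of the 20 FOXD2 sites by distance of the site centre from the FOXD2 start in the deposited annotation (x axis, kb). Circles stand for combined, squares for ARID1A and triangles for ARID1B silencing, and all share the 3 Control libraries. The lowest points belong to the site at 182.6 kb, at -3.48, -2.44 and -1.62.

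FOXD2 +182.6 kb (chr1:47618108-47619173, intergenic) measured 9.82, 9.0 and 8.70 CPM in the 3 Control libraries (9.17 ± 0.578, SD, n = 3). The shARID1A/B.2.3 libraries measured 0.854, 0.674 and 0.615 CPM, and those of shARID1A/B.4.2 measured 1.21, 0.874 and 0.696 CPM. The combinations thus stood at 7.79% and 10.1% of the Control mean, with 14 to 29 reads a library against 204 to 219 in Control. The log2 change of combined silencing was -3.48 ± 0.14 (SE), an 11.2-fold lower level. Only 4 tested sites had a larger fall, all with a mean of 0.196 to 0.318 CPM over the libraries. Among the 181893 sites with a mean of at least 1 CPM it ranked 1, and the next site was at -3.36.

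The same site was lower in single silencing too. It measured 1.86, 1.71 and 2.29 CPM with shARID1A.2 (21.3% of the Control mean) and 1.42, 1.48 and 1.5 CPM with shARID1A.4 (16.0%). With shARID1B.2 it measured 4.17, 3.95 and 4.32 CPM (45.2%), and with shARID1B.3 2.51, 2.24 and 1.47 CPM (22.6%). All 12 of these libraries lay below the 3 Control libraries and above the 6 combination libraries, whose highest value was 1.21 CPM. The log2 change was -2.44 ± 0.13 (SE) with ARID1A silencing and -1.62 ± 0.12 with ARID1B silencing. Both are given without a test, since the site had been chosen on the same Control libraries.

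Comparisons without any library used for that choice placed ARID1A below ARID1B silencing at FOXD2 +182.6 kb. The difference was -0.82 ± 0.13 (SE, log2, FDR = 1.30e-06), and the 6 ARID1A libraries, at 1.42 to 2.29 CPM, lay below all shARID1B.2 libraries but overlapped those of shARID1B.3, at 1.47 to 2.51 CPM. The ARID1B shRNAs differed from each other by 0.96 ± 0.16 (FDR = 2.33e-06), with shARID1B.2 the higher. Between the ARID1A shRNAs the difference was 0.41 ± 0.21 (FDR = 0.35), which did not pass the test. The FDR for ARID1A against ARID1B rests on the spread between libraries within each shRNA group. It does not measure the spread between shRNAs of a gene, so the difference holds for these shRNAs only.

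**Figure D2:**
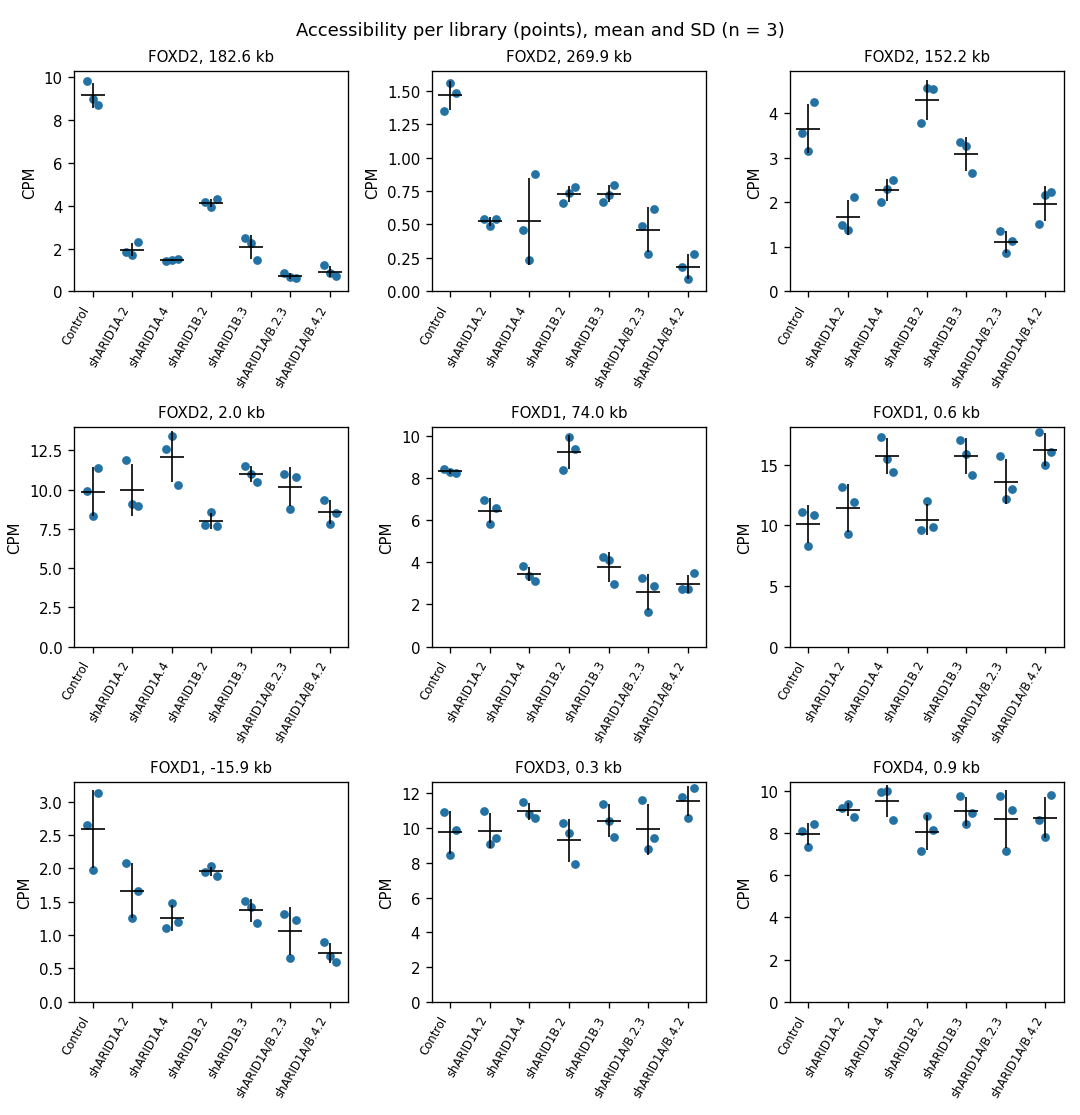
CPM of 9 member sites (y axes, each from 0) in the 7 groups (x axes). Points are libraries, and the black marks give the mean and SD of 3 libraries. At FOXD2 182.6 kb the Control libraries sit at 8.70 to 9.82 CPM and all silenced libraries at 4.32 CPM or less, while every group overlaps Control at FOXD2 2.0 kb and FOXD3 0.3 kb.

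ARID1A silencing lowered 10 of the 36 member sites and raised 1, where 5.37% of tested sites were lower, 1.67% higher and 7.05% changed in either direction. ARID1B silencing lowered 10, where 3.53% of tested sites were lower, 1.39% higher and 4.93% changed in either direction. By edgeR at an FDR under 0.01 it raised 0 members, with 2 higher at an unadjusted p under 0.05 and 0 called higher by DESeq2. FOXD2 gave 8 of the lowered sites in each case, the chosen site at 182.6 kb among them. Both comparisons use the same 3 Control libraries, on which the family was chosen, so their counts are a description. The ARID1B calls include the site at 191.7 kb, which passed the filter on low counts only with its Control libraries. The median log2 change of the 20 FOXD2 sites was -0.87 after ARID1A and -0.53 after ARID1B silencing, against -0.01 over all tested sites in both. Scaling on promoter sites gave 16 lowered members for ARID1A silencing, with its raised call lost, and 13 lowered for ARID1B. The ARID1B count fell to 5 without Control replicate 1, to 6 without Control replicate 3 and to 5 by DESeq2. All 6 ARID1A libraries lay below all 3 Control libraries at 10 FOXD2 sites, and all 6 ARID1B libraries at 8, where 7.14% and 5.36% of tested sites showed this. Over the family, all 6 libraries lay above Control at 4 members for ARID1A and 1 for ARID1B, against 3.15% and 2.96% of tested sites.

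Taken by shRNA, FOXD2 sites were lowered at 7 (shARID1A.2), 8 (shARID1A.4), 4 (shARID1B.2) and 9 (shARID1B.3) of 20 places. Each count includes the chosen site at 182.6 kb and uses the Control libraries of the choice, so the counts are a description. Over all 36 members the lowered counts were 7, 11, 4 and 11, where 4.54%, 4.17%, 1.84% and 4.88% of tested sites were lower. The raised counts were 0, 1, 0 and 1, where 0.834%, 2.28%, 1.34% and 3.12% were higher, and in either direction 5.38%, 6.45%, 3.18% and 8.0% were called. For shARID1A.2 and shARID1B.2, edgeR called 0 members higher at an FDR under 0.01, with 2 higher each at an unadjusted p under 0.05 and 0 called higher by DESeq2. The count for shARID1B.2 fell to 2 without Control replicate 3, without shARID1B.2 replicate 1 and without shARID1B.2 replicate 3. For shARID1B.3, the count in either direction fell from 12 to 7 without Control replicate 3.

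FOXD2 +269.9 kb (chr1:47705580-47706161, intergenic) had the second largest family value after combined silencing, -2.36 ± 0.27. Like FOXD2 +249.5 kb and FOXD1 +74.0 kb, it was named for that value, and the tests of single silencing use the same Control libraries. It measured 1.35, 1.56 and 1.48 CPM in Control. The shARID1A/B.2.3 libraries were at 0.492, 0.279 and 0.615 CPM and the shARID1A/B.4.2 libraries at 0.179, 0.0920 and 0.278 CPM. The 4 single-shRNA means were 0.523, 0.522, 0.726 and 0.730 CPM (shARID1A.2, shARID1A.4, shARID1B.2 and shARID1B.3), and no silenced library reached the Control range. ARID1A silencing lowered the site by 1.53 on the log2 scale (SE 0.25, FDR = 1.34e-06) and ARID1B silencing by 1.01 (SE 0.23, FDR = 0.000769). The ARID1B call was lost without Control replicate 2 (-0.95, FDR = 0.012) and by DESeq2 (-1.0, FDR = 0.0106). Counts here were low, at 28 to 38 reads a library in Control and 2 to 15 in the combinations.

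FOXD2 +249.5 kb (chr1:47685252-47685829, intergenic) measured 2.45, 1.77 and 2.04 CPM in Control and 0.417 to 0.689 CPM in the 6 combination libraries, with a log2 change of -1.96 ± 0.21. With shARID1A.2 it measured 1.18, 0.731 and 0.898 CPM and with shARID1A.4 0.870, 0.647 and 0.626 CPM, all below Control. ARID1A silencing lowered it by 1.34 (SE 0.20, FDR = 2.96e-07). ARID1B silencing lowered it by 0.82 (SE 0.19, FDR = 0.000986), which became -0.70 with an FDR of 0.0314 without Control replicate 1. By DESeq2 the ARID1B call was lost as well (-0.81, FDR = 0.0123). The shARID1B.2 libraries, at 1.24 to 1.81 CPM, overlapped the Control range and the shARID1B.3 libraries, at 0.756 to 1.23 CPM, did not.

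Around FOXD2 +182.6 kb, 7 further member sites lay within 50000 bases, between 142.5 and 225.2 kb. FOXD2 +142.5 kb (chr1:47577673-47579332) measured 3.32, 3.41 and 4.37 CPM in Control and 1.23 to 1.90 CPM in the combinations. ARID1A silencing lowered it by 0.96 (SE 0.15, FDR = 3.56e-07) and ARID1B silencing by 0.85 (SE 0.14, FDR = 3.75e-06), with each of the 4 shRNAs at 45.8% to 58.9% of the Control mean. Here the shRNAs of a gene did not differ beyond the test, with FDRs of 0.49 for ARID1A and 0.706 for ARID1B.

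FOXD2 +152.2 kb (chr1:47587777-47588696) was lower with ARID1A and not with ARID1B silencing. Control measured 3.56, 3.16 and 4.25 CPM, shARID1A.2 1.49, 1.38 and 2.11 CPM, and shARID1A.4 2.01, 2.31 and 2.50 CPM. The ARID1B libraries measured 3.79, 4.57 and 4.55 CPM (shARID1B.2) and 3.35, 3.26 and 2.65 CPM (shARID1B.3). Every ARID1A library lay below every Control and every ARID1B library at this site. The change was -0.92 ± 0.15 with ARID1A silencing (FDR = 2.00e-06) and 0.00 ± 0.15 with ARID1B silencing (FDR = 1.0), and the difference between them was -0.92 ± 0.13 (FDR = 1.74e-08). Over the family, 2 of 36 sites, FOXD2 +152.2 kb and +182.6 kb, were lower with ARID1A than with ARID1B silencing, where 3.69% of tested sites were lower, 1.05% higher and 4.74% changed in either direction. By edgeR at an FDR under 0.01, 0 members were higher, with 6 higher at an unadjusted p under 0.05 and 0 called higher by DESeq2.

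The combinations differed from each other at FOXD2 +152.2 kb, with 1.35, 0.860 and 1.14 CPM for shARID1A/B.2.3 and 1.52, 2.16 and 2.23 CPM for shARID1A/B.4.2, a log2 difference of -0.85 ± 0.21 (FDR = 0.00307). They also differed at FOXD2 +97.6 kb (-0.58 ± 0.12, FDR = 0.000256). These were 2 of 36 members, where 3.79% of tested sites were lower in shARID1A/B.2.3, 1.43% higher and 5.22% either, and the count ranged from 0 to 4 when single libraries were left out. It was 0 without shARID1A/B.2.3 replicate 2, 4 without shARID1A/B.2.3 replicate 3, and 1 without shARID1A/B.4.2 replicate 2 or 3. Replicate 2 of shARID1A/B.2.3 was the deepest library of the combinations, with 40953070 reads in sites, and the part of depth was not tested.

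FOXD2 +225.2 kb (chr1:47660914-47661506) separated the ARID1B shRNAs. Control measured 2.79, 2.14 and 2.61 CPM, shARID1B.2 1.56, 1.81 and 2.94 CPM, and shARID1B.3 1.0, 1.12 and 0.630 CPM. The shARID1B.2 libraries overlapped Control, whereas the shARID1B.3 libraries lay below it. The shRNAs differed by 1.15 ± 0.22 (FDR = 6.81e-05), which became 0.81 with an FDR of 0.0364 without shARID1B.2 replicate 3, the library at 2.94 CPM. ARID1A silencing lowered the site by 1.31 (SE 0.19, FDR = 1.25e-07), with means of 0.913 and 1.13 CPM. ARID1B silencing lowered it by 0.81 (SE 0.18, FDR = 0.000597), or by 0.73 with an FDR of 0.0138 without Control replicate 1.

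The other neighbours had lower levels. FOXD2 +191.7, +202.9 and +207.9 kb had Control means of 0.658, 0.779 and 0.619 CPM, from 10 to 23 reads a library, and their log2 changes after combined silencing were -1.34, -1.37 and -1.23. FOXD2 +202.9 and +207.9 kb passed no test of single silencing, though 1 value of each missed the threshold narrowly. FOXD2 +202.9 kb was at -1.09 ± 0.31 with ARID1A (FDR = 0.0103) and -0.72 ± 0.29 with ARID1B silencing (FDR = 0.118). FOXD2 +207.9 kb was at -0.81 ± 0.34 with ARID1A (FDR = 0.127) and -1.27 ± 0.35 with ARID1B silencing (FDR = 0.0101). The site at 191.7 kb met the rule for a call with ARID1B silencing, at -1.41 ± 0.36. It had passed the filter on low counts only with the help of its Control libraries. A fall against Control was thus favoured, and the value is given as a description. The call was lost without Control replicate 1 or 3, shARID1B.2 replicate 2 or shARID1B.3 replicate 2 (log2 changes of -1.35, -1.17, -1.26 and -1.15). FOXD2 +157.1 kb measured 4.56 ± 0.646 CPM in Control and 2.92 and 3.42 CPM in the combinations, and neither ARID1A (-0.25 ± 0.13) nor ARID1B silencing (-0.34 ± 0.13) passed the test there.

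FOXD2 +97.6 kb (chr1:47532580-47534561) had the highest CPM of the FOXD2 sites in Control, 12.8, 12.2 and 13.8 CPM. The 4 single-shRNA means were 9.14, 9.31, 9.58 and 9.63 CPM, all within 70.7% to 74.5% of Control and with no library in the Control range. The combinations measured 5.09 ± 0.751 and 7.51 ± 0.341 CPM. ARID1A silencing lowered the site by 0.49 (SE 0.09, FDR = 4.83e-05) and ARID1B silencing by 0.43 (SE 0.09, FDR = 0.000444), or by 0.38 with an FDR of 0.0163 without Control replicate 3. The difference between them was -0.06 ± 0.08 (FDR = 0.791).

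At the FOXD2 gene itself, the site at 2.0 kb did not pass the test against Control in any group. It measured 9.91, 8.30 and 11.4 CPM in Control, 11.9, 9.06 and 8.98 CPM with shARID1A.2, 12.6, 13.4 and 10.3 CPM with shARID1A.4, 7.72, 8.58 and 7.68 CPM with shARID1B.2 and 11.5, 11 and 10.5 CPM with shARID1B.3. The combinations measured 10.2 ± 1.25 and 8.56 ± 0.773 CPM, and every group overlapped Control. The log2 changes were 0.16 ± 0.10 with ARID1A (FDR = 0.414) and -0.08 ± 0.10 with ARID1B silencing (FDR = 0.761). The ARID1B shRNAs differed by -0.47 ± 0.12 (FDR = 0.0035). That call was lost on leaving out replicate 1 or 3 of shARID1B.2 or replicate 1 or 2 of shARID1B.3 (-0.44, -0.44, -0.44 and -0.48). By DESeq2 it was lost too (-0.47, FDR = 0.0112). Summed over its 20 sites, FOXD2 had 72.0 ± 6.82 CPM in Control, 49.9 to 53.7 CPM in the single-shRNA groups and 38.9 ± 4.55 and 42.5 ± 0.820 CPM in the combinations.

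Combined silencing was below the mean of the 4 single-shRNA groups at 8 of 36 members, where 6.85% of tested sites were lower, 0.969% higher and 7.81% changed in either direction. It was above that mean at 0 members by edgeR at an FDR under 0.01, with 1 above at an unadjusted p under 0.05 and 0 called above by DESeq2. FOXD2 gave 6 of the 8. The log2 differences were -1.45 ± 0.14 at 182.6 kb, -1.09 ± 0.25 at 269.9 kb, -0.88 ± 0.18 at 249.5 kb, -0.86 ± 0.12 at 152.2 kb, -0.84 ± 0.17 at 225.2 kb and -0.62 ± 0.07 at 97.6 kb. The combination libraries are those on which the family was chosen, so these values and counts are a description and nothing is read from them.

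FOXD1 had sites that moved in opposite directions. FOXD1 +74.0 kb (chr5:73373772-73375290, intergenic) measured 8.42, 8.30 and 8.22 CPM in Control. With the ARID1A shRNAs it measured 6.97, 5.81 and 6.56 CPM (shARID1A.2) and 3.80, 3.37 and 3.13 CPM (shARID1A.4). With the ARID1B shRNAs it measured 8.38, 9.93 and 9.39 CPM (shARID1B.2) and 4.27, 4.12 and 2.98 CPM (shARID1B.3). Thus shARID1A.4 and shARID1B.3 stood at 41.3% and 45.6% of Control, while shARID1A.2 lay below Control by less and shARID1B.2 overlapped it. The combinations measured 2.58 ± 0.847 and 2.98 ± 0.435 CPM, a log2 change of -1.61 ± 0.12.

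Tested at FOXD1 +74.0 kb, the shRNAs of each gene differed from each other. The difference between shARID1A.2 and shARID1A.4 was 0.90 ± 0.16 (SE, log2, FDR = 1.81e-05), and that between shARID1B.2 and shARID1B.3 was 1.25 ± 0.14 (FDR = 5.89e-12). Against Control, shARID1A.4 (-1.26 ± 0.15, FDR = 2.26e-10) and shARID1B.3 (-1.10 ± 0.14, FDR = 3.71e-10) passed the test. The values of shARID1A.2 (-0.37 ± 0.13, FDR = 0.0733) and shARID1B.2 (0.15 ± 0.13, FDR = 0.615) did not. Averaged over shRNAs, ARID1A silencing lowered the site by 0.82 (SE 0.12, FDR = 1.11e-07) and ARID1B silencing by 0.48 (SE 0.11, FDR = 0.00208). The ARID1B call was lost without any 1 of the Control replicates (-0.47, -0.46 and -0.49, FDRs of 0.0148, 0.0108 and 0.0105) and without shARID1B.3 replicate 3 (-0.42, FDR = 0.0105). By DESeq2 it was lost too (-0.47, FDR = 0.0166).

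FOXD1 +0.6 kb (chr5:73446738-73449091) lies in the single FOXD1 exon and covers the start of the gene. It measured 11.1, 8.34 and 10.9 CPM in Control, 13.2, 9.30 and 11.9 CPM with shARID1A.2 and 17.3, 15.5 and 14.4 CPM with shARID1A.4. With shARID1B.2 it measured 9.62, 12.0 and 9.85 CPM, and with shARID1B.3 17.1, 15.9 and 14.2 CPM. Here shARID1A.4 and shARID1B.3 stood above the Control range, at 155% of the Control mean in both cases, and the other single shRNAs overlapped it. The combinations measured 13.7 ± 1.84 and 16.2 ± 1.35 CPM, a log2 change of 0.56 ± 0.10.

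The rise at FOXD1 +0.6 kb was 0.64 ± 0.12 with shARID1A.4 (FDR = 2.18e-05) and 0.64 ± 0.11 with shARID1B.3 (FDR = 7.08e-06). The shRNAs of ARID1B differed by -0.60 ± 0.11 (FDR = 4.87e-05) and those of ARID1A by -0.46 ± 0.12 (FDR = 0.00606). Without shARID1A.2 replicate 2 or 3, or shARID1A.4 replicate 1 or 2, the ARID1A shRNAs no longer differed past the test (-0.32, -0.50, -0.38 and -0.48). That difference also missed the threshold by DESeq2 (-0.46, FDR = 0.0181) and with scaling on promoter sites (-0.36, FDR = 0.0124). ARID1A silencing raised the site by 0.41 ± 0.10 (FDR = 0.00269), and ARID1B silencing, at 0.35 ± 0.10 (FDR = 0.0199), missed the threshold. The ARID1A call was lost without Control replicate 2 (0.31, FDR = 0.063), without shARID1A.2 replicate 1 (0.36, FDR = 0.0143) and when libraries were scaled on promoter sites (0.22, FDR = 0.0623). Promoter sites took 20.0% to 20.6% of reads in Control, 21.7% to 24.0% and 22.9% to 24.1% with shARID1A.2 and shARID1A.4, and 20.9% to 21.5% and 21.8% to 23.4% with shARID1B.2 and shARID1B.3. The part of this shift in the rise was not tested beyond that scaling.

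**Figure D3:**
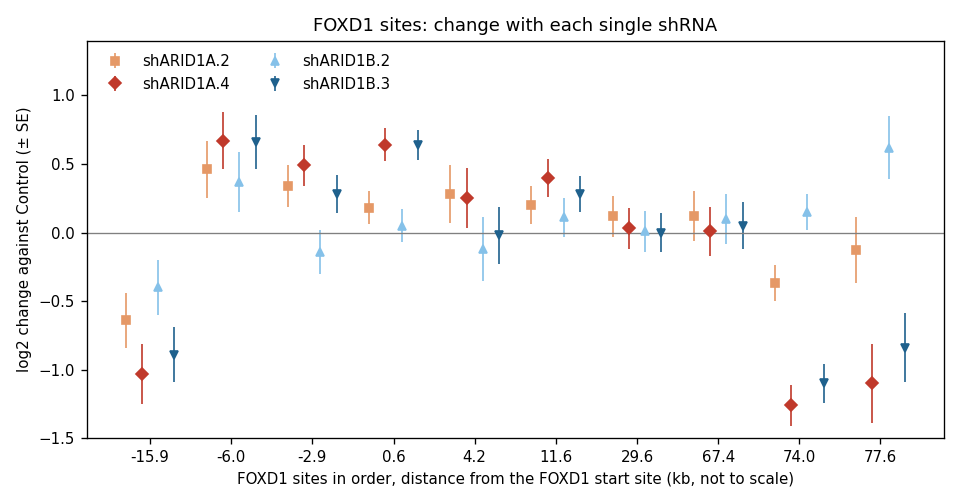
log2 change against Control (y axis, with standard errors) at the 10 FOXD1 sites for each single shRNA, with sites in order of distance from the FOXD1 start (x axis, kb, not to scale). Positive distances lie downstream of the gene. At 74.0 kb shARID1A.4 and shARID1B.3 sit at -1.26 and -1.10, and at 0.6 kb both sit at 0.64.

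FOXD1 -15.9 kb (chr5:73464070-73464764) was annotated as intergenic and lies in an intron of the long non-coding RNA LINC01386 in GENCODE. It measured 2.65, 1.97 and 3.13 CPM in Control, and its single-shRNA means were 1.67, 1.26, 1.95 and 1.37 CPM (shARID1A.2, shARID1A.4, shARID1B.2 and shARID1B.3). Only the groups of shARID1A.4 and shARID1B.3 lay wholly below Control among the single shRNAs. ARID1A silencing lowered the site by 0.84 (SE 0.18, FDR = 0.000337), or by 0.66 with an FDR of 0.0297 without Control replicate 3. ARID1B silencing lowered it by 0.65 (SE 0.17, FDR = 0.00619). That call was lost without Control replicate 1 or 3, shARID1B.2 replicate 1 or 3, or shARID1B.3 replicate 2 or 3 (-0.65 to -0.48). By DESeq2 it was lost too (-0.64, FDR = 0.0425). The combinations measured 1.06 ± 0.361 and 0.730 ± 0.151 CPM.

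FOXD1 +77.6 kb (chr5:73370661-73371132, intergenic), next to the site at 74.0 kb, held a forkhead match and separated the ARID1B shRNAs, with 1.85, 2.71 and 2.02 CPM for shARID1B.2 and 0.837, 0.606 and 1.01 CPM for shARID1B.3. Control lay between them, at 1.30, 1.19 and 1.72 CPM. The shRNAs differed by 1.46 ± 0.23 (FDR = 1.01e-06). Against Control, shARID1B.2 was at 0.62 ± 0.23 (FDR = 0.0911) and shARID1B.3 at -0.84 ± 0.25 (FDR = 0.0123), neither past the test. The value of shARID1A.4, -1.10 ± 0.29 (FDR = 0.00468), passed it on the lower side, and shARID1A/B.2.3 was at -1.11 ± 0.26, given as a description. The other 6 FOXD1 sites passed no test of ARID1A or ARID1B silencing, and summed over 10 sites FOXD1 had 43.2 ± 5.47 CPM in Control and 39.5 to 46.5 CPM in the silenced groups.

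Over the family, the ARID1B shRNAs differed at 6 of 36 sites and the ARID1A shRNAs at 2, where 7.21% and 2.57% of all tested sites differed. For ARID1B, 4.25% of tested sites were higher and 2.96% lower with shARID1B.2 than with shARID1B.3, and for ARID1A, 0.737% were higher and 1.84% lower with shARID1A.2 than with shARID1A.4. The 6 were FOXD1 +77.6, +74.0 and +0.6 kb and FOXD2 +2.0, +182.6 and +225.2 kb. In 4 of them shARID1B.2 was higher than shARID1B.3, and in the 2 sites at the genes it was lower.

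FOXD3, the neural crest regulator, had 1 site, at 0.3 kb (chr1:63322172-63324558), which lies in its single exon and covers the starts of FOXD3 and of its antisense gene FOXD3-AS1. The site measured 10.9, 8.47 and 9.90 CPM in Control. Group means of silenced cells ran from 9.32 CPM (shARID1B.2) to 11.6 CPM (shARID1A/B.4.2), and every group overlapped Control. ARID1A silencing gave 0.10 ± 0.10 (SE, log2, FDR = 0.665) and ARID1B silencing 0.02 ± 0.10 (FDR = 0.946), and 0 of the 14 contrasts were called by edgeR or DESeq2 at an FDR under 0.01. The unadjusted edgeR p was under 0.05 in 2 of them, shARID1A/B.4.2 against Control and the combinations against each other. Sites farther from FOXD3 carry the names of other genes and are not counted here.

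FOXD4 had 5 sites, of which 0 were called in any contrast by edgeR or DESeq2 at an FDR under 0.01. At an unadjusted edgeR p under 0.05 there were 0 to 2 sites per contrast, and DESeq2 gave no adjusted p for 2 sites in 11 of the 14 contrasts. FOXD4 +0.9 kb (chr9:116581-118511), in its exon, had means of 7.95 CPM in Control and 8.03 to 9.52 CPM in silenced groups. FOXD4 +4.4 kb (chr9:112783-115335) overlaps the start of LINC01388 and had the highest CPM of the FOXD4 sites, 17.5, 15.1 and 18.8 CPM in Control and group means of 16.1 to 19.6 CPM after silencing. The log2 changes of the 5 sites were -0.04 to 0.77 with ARID1A and 0.05 to 0.66 with ARID1B silencing. Each FOXD4 site has near-identical copies elsewhere in GRCh38, with 1 to 48 other places covering at least 50% of its length and a best identity of 96.6% to 99.6%, all best matches on chromosome 2. How reads that align to several places were counted is not given in the sources used here, so the FOXD4 levels are uncertain. The FOXD1, FOXD2 and FOXD3 sites had no such copy.

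The member sites also differed in base composition, which the choice of members had not used. The 8 FOXD2 sites lowered by ARID1A silencing had a median of 1.47 CpG dinucleotides per 100 bases (0.98 to 3.53), and the other 12 had 3.65 (1.16 to 10.9). Over all tested sites the median was 0.99, with 0.88 among sites lowered by ARID1A silencing and 5.65 among those raised. FOXD1 +0.6 kb, which was raised, had 12.7, the highest of the family, and FOXD1 +74.0 kb had 0.79, the lowest. FOXD3 +0.3 kb had 11.8 and passed no test. These values describe the sites and were given no test.

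**Figure D4:**
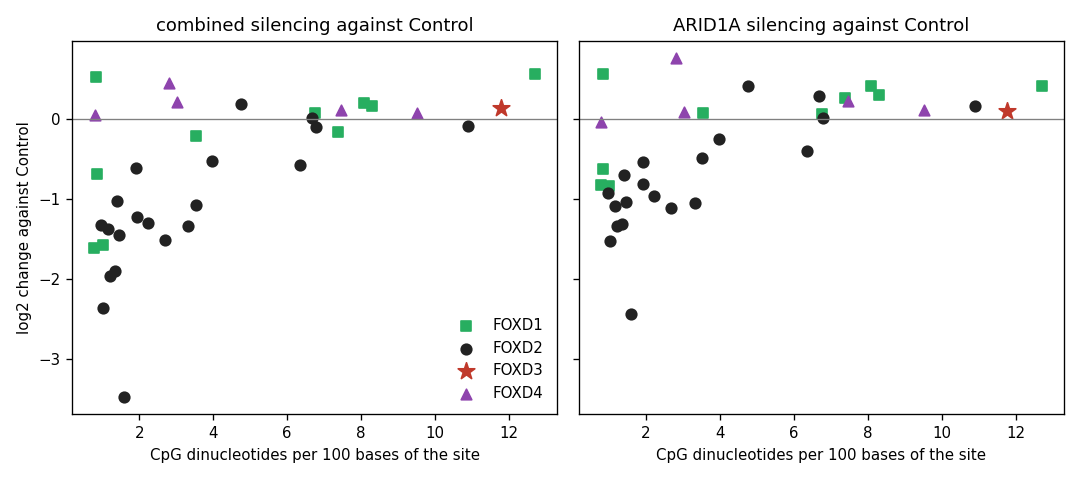
log2 change against Control (y axes) of the 36 member sites by CpG dinucleotides per 100 bases of the site (x axes), after combined (left) and ARID1A silencing (right). Markers stand for the 4 genes. Sites at -1 or lower have fewer than 4 CpG per 100 bases, and the rightmost point, FOXD1 0.6 kb at 12.7, is above 0.

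Other sites of the genome followed the course of FOXD2 +182.6 kb over the 21 libraries. By Pearson correlation of log2 CPM over 181867 sites, the 5 most alike, at most 1 for each gene name, carried the names MIR3144 (0.981), GADD45A (0.977), LOC101927874 (0.976), SLC39A11 (0.975) and C16orf97 (0.975). Their log2 changes were smaller, from -1.93 to -1.47 after combined, -1.39 to -0.99 after ARID1A and -0.90 to -0.53 after ARID1B silencing. Among members, FOXD2 +249.5 kb was the most alike (0.94), followed by FOXD2 +142.5 and +225.2 kb (0.87 each), FOXD1 -15.9 kb (0.86) and FOXD1 +74.0 kb (0.85), and FOXD1 +0.6 kb was the least (-0.62). All points share libraries and groups, so the coefficients are descriptive.

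Related genes gave a background for the family. Sites of other forkhead genes numbered 620 in 37 of 40 genes, of which 31 (5.0%) were lowered and 12 (1.94%) raised by ARID1A silencing and 23 (3.71%) and 8 (1.29%) by ARID1B silencing, close to the shares over all tested sites. Sites of neural crest transcription factors numbered 432 in 15 of 16 genes, of which 46 (10.6%) were lowered and 7 (1.62%) raised by ARID1A silencing and 33 (7.64%) and 1 (0.231%) by ARID1B silencing. Over all tested sites the shares were 5.37% and 1.67% for ARID1A and 3.53% and 1.39% for ARID1B silencing. Much of the list's count came from 1 gene. ETS1, an ETS-domain factor with 131 sites, gave 25 of the 46 sites lowered by ARID1A and 21 of the 33 lowered by ARID1B silencing. Each other gene of the list had 0 to 7 lowered by ARID1A and 0 to 5 by ARID1B silencing. The antisense genes of FOXD2 and FOXD3 and the FOXD4-like genes together had 21 sites in 6 of 7 genes, of which 0 were called after ARID1A or ARID1B silencing by edgeR or DESeq2 at an FDR under 0.01. At an unadjusted edgeR p under 0.05 there were 2 after ARID1A and 1 after ARID1B silencing, and DESeq2 gave no adjusted p for 4. Of the 21, only 2 were FOXD2-AS1 sites, FOXD3-AS1 had none, and the rest carried names of FOXD4-like genes. Copies were not sought for the FOXD4-like sites, so the bearing of reads that align to several places on them was not tested.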

How the data were processed

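ATAC-seq was performed on 21 libraries of SK-N-BE(2) cells, 3 in each of 7 groups, 72 h after transduction. The authors deposited raw read counts per consensus site and library, on GRCh38 per the submitters' processing notes, which also name DESeq2. Their aligner and peak caller were not given in the sources used here. A deposited annotation gives the nearest gene and the distance to its start. The 36 columns of normalised counts and the authors' DESeq2 fold changes and p-values were not used.

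Counts were fitted with edgeR v4.0.16 in R v4.3.3 (quasi-likelihood test, TMM scaling, filterByExpr with a minimum count of 10, all groups in 1 model), with Benjamini-Hochberg adjustment over 357029 sites and an FDR under 0.01 as the threshold. The filter removed 10871 sites. The fit was tested on simulated data, where small changes at low counts were often missed, and the bar for passing that check was lowered after its first run. Libraries of a group are separate in the labels, but nothing states that they came from separate cultures, so p-values measure only the spread between libraries. Tests that average the 2 shRNAs of a gene use that spread within each shRNA group and not the spread between shRNAs. Replicate libraries differed by more than counting noise. Deviations of libraries with the same replicate number correlated at r of -0.29 to 0.48, over 0.1 in 11 of 63 pairs. Every pair was over 0.1 (0.18, 0.48 and 0.19) only for Control with shARID1A/B.2.3, where the data, not the labels, pair the numbers. Depth was 16140029 to 44472230 reads in sites. The deepest libraries were shARID1B.3 replicates 1 and 2 (36799314 and 44472230) and shARID1A/B.2.3 replicates 1 and 2 (29857760 and 40953070). All other libraries held at most 25188802. The part of depth in the differences between the ARID1B shRNAs and between the combinations was not tested.

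The members and lists were chosen with earlier results of these data known. Sites named one by one were the site nearest to each gene's start, the 3 per gene with the largest change after combined silencing among those called in any contrast, the site with the highest Control CPM, and the chosen FOXD2 site with its neighbours within 50000 bases. FOXD2 +72.6 kb, FOXD2 +252.8 kb and the sites separating shRNAs of 1 gene were named after their values were seen. Copies were sought with minimap2 v2.31 and genes taken from GENCODE release 44. Alternatives covered scaling, low-count filters, DESeq2 v1.42.0, thresholds, the groups in the model, a replicate block, leaving out each library, and the choice of members.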

Additional observations from a re-analysis of the deposited data

Results flagged for a closer look

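In 12 cases a member site responded differently to groups that share a contrast with Control, by edgeR's test of the difference itself at an FDR under 0.01. All values are log2 differences. Of all tested sites, 4.74% differed between ARID1A and ARID1B silencing and 5.22% between the combinations. Among members the share was 5.56% in both comparisons, near those values. Between the shRNAs of ARID1A 2.57% of tested sites differed, and between those of ARID1B 7.21%.

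ARID1A silencing was below ARID1B silencing at FOXD2 +152.2 kb (-0.92) and FOXD2 +182.6 kb (-0.82). The shRNAs of ARID1A differed at FOXD1 +74.0 kb, where shARID1A.2 was above shARID1A.4 (0.90), and at FOXD1 +0.6 kb, where it was below (-0.46).

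The shRNAs of ARID1B differed at 6 sites. The library means of shARID1B.2 were above those of shARID1B.3 at FOXD1 +77.6 kb (1.46), FOXD1 +74.0 kb (1.25), FOXD2 +225.2 kb (1.15) and FOXD2 +182.6 kb (0.96), and below them at FOXD1 +0.6 kb (-0.60) and FOXD2 +2.0 kb (-0.47). Among the combinations, shARID1A/B.2.3 was below shARID1A/B.4.2 at FOXD2 +152.2 kb (-0.85) and FOXD2 +97.6 kb (-0.58). How strongly each shRNA silenced its target was not measured here, and its part in these differences was not tested.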

How the results depend on the processing

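Of 43 called values of single sites, 0 changed direction under the alternatives. The 43 had been selected by their calls and include values of combined silencing against Control. A change of direction was thus unlikely from the start, and nothing is read from its absence. Among the 704 values of the 43 under alternatives, 652 kept their side of the threshold and 52 lost the call, spread over 16 of the 43. For 1 further value DESeq2 gave no adjusted p.

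Counts of called members moved by over 1.5 times as follows, and the cause was not tested where the alternative's own construction (fewer sites, a stricter or looser threshold) does not give it. With only the 21 sites within 100000 bases of a start, the counts were 5 for combined silencing, 6 for shARID1A/B.2.3, 4 for shARID1A/B.4.2, 4 for ARID1A and 3 for ARID1B silencing, 1 for shARID1A.2 and shARID1B.2, and 5 for shARID1A.4 and shARID1B.3. They were 0 for ARID1A against ARID1B, 3 for combined against single silencing and 1 between combinations. At an FDR under 0.05 they were 18 for ARID1A silencing, 4 for ARID1A against ARID1B and 4 between combinations. With a log2 change of at least 1 they were 5 for ARID1A and 4 for ARID1B silencing, 2 for shARID1B.2, 7 for shARID1B.3, 0 for ARID1A against ARID1B, 0 between ARID1A shRNAs, 3 between ARID1B shRNAs, 2 for combined against single silencing and 0 between combinations. DESeq2 gave 5 for ARID1B silencing and 1 between ARID1A shRNAs, scaling on promoter sites 11 for shARID1A.2 and 1, the higher one, between ARID1A shRNAs, and a fit of only the compared groups 4 for ARID1A against ARID1B. Between combinations, promoter scaling gave 1 lower and 1 higher.

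Leaving out 1 library gave 5 to 10 called members for ARID1B silencing, 2 to 4 for shARID1B.2, 7 to 13 for shARID1B.3, 1 to 2 between ARID1A shRNAs and 0 to 4 between combinations. The main fit took the replicate numbers as pairs in no contrast, although 13 of 21 libraries were most like their own number. For shARID1A/B.2.3 a replicate block gave 18 members lower and 1 higher. The block gave 12 called members for ARID1A and 11 for ARID1B silencing, 19 for combined silencing and 8 for combined against single silencing. FOXD2 +191.7, +202.9 and +207.9 kb, with 10 to 23 reads a library in Control, had standard errors of 0.29 to 0.36 on the log2 scale for combined, ARID1A and ARID1B silencing.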
